A study of Mus musculus with 6 samples.

Results

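The genes described here encode the enzymes that build and sulfate the sugar chains of the cell surface: sialyltransferases, the enzymes that start and branch mucin-type O-glycans, fucosyltransferases, galactosyl- and N-acetylglucosaminyltransferases that extend chains, N-glycan branching enzymes, the polymerases of heparan sulfate and hyaluronan, and the sulfotransferases. Membership was set by patterns in the gene symbol, and 123 of the 24411 genes in the deposited table matched. RNA was measured in 6 libraries of 2 mouse endothelial cell lines, 3 of bEnd.3 and 3 of UV2. bEnd.3 cells derive from mouse brain endothelium transformed by the polyoma middle T oncogene, and the strain in the labels is BALB/c; UV2, also written UV♀2, has the strain (BALB/c x C57BL/6)F1. No agent or genetic change distinguishes the groups in the labels. In both lines cells were grown to confluency on a 10-cm dish, washed 3 times, kept without serum for 3 days and detached with trypsin-EDTA. Line, strain and origin of the cells cannot be told apart. A difference in Y-chromosome transcripts goes with the line too: 4 such genes had a median log2 of UV2 over bEnd.3 of -10.8. Each group is a single line, and the labels do not state that the 3 libraries of a line were separate cultures. The p-values therefore measure only the spread between these libraries.

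Glycosyltransferases act one after another in the Golgi, each adding a sugar from a nucleotide-sugar donor to the product of the one before, so that the set of enzymes a cell transcribes bounds the chains it can make. In endothelium these chains form the glycocalyx, which holds antithrombin and growth factors on sulfated heparan sulfate and presents sialylated, fucosylated and sulfated ligands to L-selectin on leukocytes. Transcripts were measured here, and neither enzyme activity nor glycans were.

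Levels are CPM: counts divided by the TMM-scaled size of each library and set to one size for all. Fold changes are log2 of UV2 over bEnd.3 with standard errors (SE), and adjusted p-values were obtained by edgeR (quasi-likelihood test, Benjamini-Hochberg adjustment over all 12720 tested genes). Each SE was derived from that test, as the absolute log2 fold change divided by the square root of its F statistic. A gene was called at an adjusted p under 0.05, and called beyond 2-fold by edgeR's glmTreat at the same threshold. Means are given ± SD over n = 3 libraries. Levels are compared between genes only per length, as CPM per kb of transcript.

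The libraries held 21306441 to 28748128 counts each. All 10 endothelial markers were tested, and their summed level was 12328 to 13066 CPM in bEnd.3 and 12007 to 13614 CPM in UV2. Of the 10, 1 was higher (Tie1, 0.88), 4 were lower (Emcn -1.47, Eng -0.69, Egfl7 -0.67 and Erg -0.35, as log2 fold changes) and 5 did not pass, Pecam1, Cdh5 and Kdr among them. Of the 9 fibroblast and pericyte markers 3 were tested (Col3a1, Pdgfra and Pdgfrb) and all 3 were higher in UV2, where the list summed to 30.1 to 72.6 CPM against 3.50 to 3.83 CPM in bEnd.3; Col3a1 was at 0.954 and 32.1 CPM, while Col1a1, Col1a2, Dcn, Lum and Rgs5 were at or near 0. The 5 leukocyte markers reported summed to 0.917 to 1.55 CPM in bEnd.3 and 267 to 368 CPM in UV2, of which Lyz2 (lysozyme) made up 1.27 and 330.3 CPM, with Ptprc, Cd3e, Adgre1 and Itgam at or near 0. The 5 epithelial markers stayed at or under 0.501 CPM in every library with Epcam at 0, and the 5 smooth muscle markers summed to 1.99 to 2.99 CPM in bEnd.3 and 1.74 to 2.18 CPM in UV2 with Cnn1 and Des at 0. Within that list Acta2 had 0 counts in bEnd.3 and 39 in UV2, at least 13.9-fold higher, Myh11 had 16 and 4 counts, and Tagln was lower in UV2 (log2 fold change -0.74). Whether cells carrying these transcripts had a part in the results below was not tested. In bulk RNA a smaller share of cells that carry a transcript and less of it per cell cannot be told apart.

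Of the 123 genes, 20 had 0 counts in all 6 libraries, 31 had too few counts to be tested (1 to 49 counts over all libraries) and 72 were tested. UV2 exceeded bEnd.3 for 42 of the tested genes and lay below it for 23, while 7 did not pass. Those 65 genes are 90.3% of the tested members, beside 67.1% of all tested genes called (33.9% higher and 33.3% lower). By group the called share was 84.6% for sialylation, 81.8% for mucin-type and 82.4% for chain extension genes. It was 100% for fucosylation, sulfation, polymerase and N-glycan branching genes. Beyond 2-fold, 22 were higher and 6 lower, 38.9% of the tested members beside 19.4% of all tested genes (10.6% higher and 8.81% lower). Leaving out 1 library gave 17 to 21 members higher and 5 to 8 lower beyond 2-fold. For 63 of the 72 no library of one line lay within the range of the other line, beside 73.2% of all tested genes. The median log2 fold change of the tested members was 0.45, beside -0.01 over all tested genes. These shares describe the tested members only, since a gene with few counts in both lines could not be called. Some members, B3galnt1 and Mgat4c among them, passed the filter only through the line where they were higher. Such genes could be tested only because the lines differed, and they raise the shares called. The shares over all tested genes were made with the same filter. With a filter of 1 CPM in 3 libraries, 66 members were tested and 59 called. Without bEnd.3 replicate 1, which lay apart from its line for several genes below, 69 members were called.

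**Figure D1:**
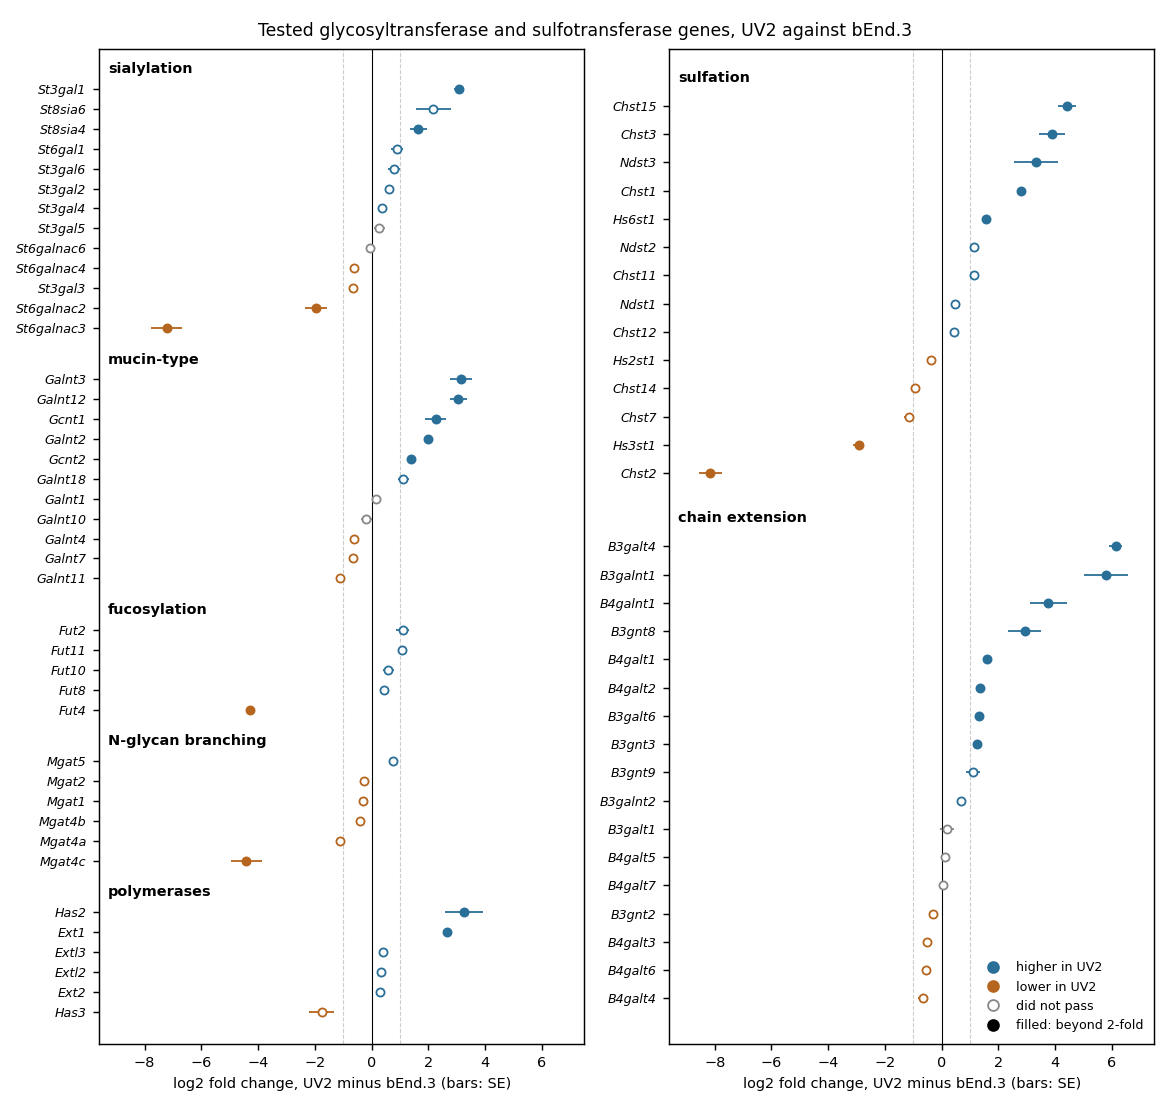
Log2 fold change (UV2 over bEnd.3, x axis) of each of the 72 tested genes, grouped by the step it catalyses, with bars of 1 SE and dashed lines at 2-fold; blue and orange points were called higher and lower in UV2, grey points did not pass, and filled points were called beyond 2-fold. Changes run from -8.16 for Chst2 to 6.13 for B3galt4, and the N-glycan branching genes lie mostly below 0.

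The summed length-scaled level of a group adds the transcript of all its members, which can act at different steps. It was higher in UV2 for 6 of the 7 groups: sialylation 122 ± 10.9 CPM per kb in bEnd.3 and 211 ± 18.4 in UV2, mucin-type O-glycosylation 219 ± 4.71 and 325 ± 2.99, and sulfation 178 ± 7.11 and 277 ± 13.8. Chain extension went from 218 ± 9.28 to 309 ± 11.1, the polymerases from 85.5 ± 4.73 to 119 ± 4.7 and fucosylation from 28.0 ± 1.33 to 39.5 ± 0.433 CPM per kb. N-glycan branching was the exception, at 295 ± 9.88 in bEnd.3 and 227 ± 14.1 in UV2. In each of the 7 groups the 3 libraries of one line lay wholly above those of the other. These sums are described without a test, and members of a group differed. Chst1 alone held 9.14% of the sulfation sum in bEnd.3 and 40.9% in UV2. The heparan sulfate sulfotransferases within it went from 72.8 ± 1.78 to 108 ± 1.66 CPM per kb. Within the polymerases the Ext genes went from 78.4 ± 1.12 to 116 ± 4.61 CPM per kb. The Has genes went from 7.12 ± 3.67 to 2.60 ± 0.916, with overlap between the lines. The leading member of a group held 30.7% of the sialylation sum in bEnd.3 (St3gal2) and 28.5% in UV2 (St3gal1), and Galnt1 held 41.2% and 30.7% of the mucin-type sum. Fut8 held 53.2% and 51.6% of the fucosylation sum, Ext2 58.6% and 51.2% of the polymerase sum and Mgat4b 44.5% and 43.2% of the branching sum. By this length the leader also changed for sulfation, from Ndst1 with 21.1% to Chst1 with 40.9%, and for chain extension, from B3gnt2 with 19.9% to B4galt1 with 33.3%. Without division by length Ndst1 led sulfation in both lines (29.8% and 30.2%), and B4galt5 led chain extension in bEnd.3 without length (25.7%) and with the exon union length (22.0%).

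Sialyltransferases cap chains with sialic acid, and in UV2 5 of the 7 tested genes that sialylate galactose (St3gal and St6gal) were higher, while 3 of the 4 tested that sialylate N-acetylgalactosamine (St6galnac) were lower. Of 21 genes 13 were tested; 7 were higher, 4 lower and 2 did not pass, with 2 higher and 2 lower beyond 2-fold and a median log2 fold change of 0.36. St3gal1 (chromosome 15, 67102875 to 67176946 on GRCm38.p6, the build of all positions here), which caps the core 1 disaccharide of O-glycans and so closes it to branching, was measured at 44.3, 30.4 and 32.5 CPM in bEnd.3 replicates 1, 2 and 3 and at 289.6, 283 and 328 CPM in those of UV2. Every UV2 library was several times above every bEnd.3 library. The difference was 8.42-fold, a log2 fold change of 3.07 (SE 0.15, adjusted p = 1.95e-06). St3gal2, which acts on the same disaccharide and on glycolipids, had 142, 118 and 111 CPM in bEnd.3 and 180.5, 179 and 203 CPM in UV2, a smaller step with a log2 fold change of 0.60 (SE 0.10, adjusted p = 0.00128). Of the summed St3gal level per kb, St3gal1 held 8.54% in bEnd.3 and 37.7% in UV2, while St3gal2 went from 45.1% to 35.7%. In UV2 the margin between them depended on the length used: St3gal1 and St3gal2 held 51.5% and 32.2% without division by length, and 39.0% and 31.0% with the exon union length.

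The St3gal enzymes that cap lactosamine chains did not move together. St3gal4 had a log2 fold change of 0.36 (SE 0.12, adjusted p = 0.0289), a call that was lost without bEnd.3 replicate 2 or 3 or UV2 replicate 1 or 3 (0.25 to 0.38), and St3gal6 one of 0.78 (SE 0.21, adjusted p = 0.0111), both higher in UV2, while St3gal3 was lower at -0.65 (SE 0.08, adjusted p = 0.000281). St3gal6 shares 1603 exon bases with Dcbld2 on the opposite strand, itself at 22.5 CPM in bEnd.3 and 52.9 CPM in UV2. The strand setting was not stated. All deposited values of St3gal6 were whole numbers, and whether reads were shared between the 2 genes was not tested. St3gal5, which makes the ganglioside GM3, had 41.2, 23.0 and 29.4 CPM in bEnd.3 and 35.4, 36.1 and 41.7 CPM in UV2 and did not pass (log2 change 0.28, SE 0.19, adjusted p = 0.239), but passed at 0.52 without bEnd.3 replicate 1. St6gal1, which puts alpha2,6-linked sialic acid on N-glycans and makes the ligand of CD22, was at 20.05, 36.1 and 28.3 CPM and 44.5, 48.9 and 64.4 CPM. Its UV2 libraries were all above its bEnd.3 libraries, with a log2 fold change of 0.90 (SE 0.22, adjusted p = 0.00726).

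Among the enzymes acting on N-acetylgalactosamine, 3 of the 4 tested St6galnac genes were lower in UV2. St6galnac3 (chromosome 3, 153198274 to 153725133), which adds a further sialic acid to sialylated core 1 and to gangliosides, had 2.20, 3.18 and 3.22 CPM in bEnd.3 and 1 count in all in UV2, in replicate 3. The bEnd.3 level was 204 times that of UV2, with an exact 95% counting interval of 36.3 to 8105 (adjusted p = 1.66e-05). The fitted log2 fold change went from -7.22 to -9.12 without UV2 replicate 3. St6galnac2 was at 0.987, 1.02 and 1.80 CPM in bEnd.3 and 0.465, 0.291 and 0.231 CPM in UV2 (log2 change -1.95, SE 0.40, adjusted p = 0.00296). St6galnac4, the most abundant per kb of the family, was at 65.5, 65.5 and 70.8 CPM and 39.8, 45.9 and 46.3 CPM, with a log2 fold change of -0.61 (SE 0.08, adjusted p = 0.000318). St6galnac6 did not pass at -0.05 (SE 0.15, adjusted p = 0.783). The summed St6galnac level was 25.4 CPM per kb in bEnd.3 and 17.4 in UV2, with no overlap between lines.

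The St8sia genes add sialic acid to sialic acid. St8sia4, a polysialyltransferase that modifies NCAM, had 77.9, 40.2 and 34.8 CPM in bEnd.3 and 137, 158 and 184 CPM in UV2. The bEnd.3 libraries spread more than 2-fold, with replicate 1 the highest, and still lay below all UV2 libraries (log2 change 1.65, SE 0.29, adjusted p = 0.00138). St8sia6, which makes disialic acid on O-glycans, had 0.762, 1.34 and 0.475 CPM and 6.59, 3.73 and 1.27 CPM. UV2 replicate 3 lay below bEnd.3 replicate 2, so the lines overlapped; the log2 fold change was 2.17 (SE 0.62, adjusted p = 0.0149), and it was 1.54 without UV2 replicate 1, and 1.85 without bEnd.3 replicate 3, where the call was lost. St8sia5 had 0 counts in bEnd.3 and 25 in UV2, at least 8.97-fold higher when bEnd.3 is set to 3 counts in all, a floor that covers counting error only. St8sia1, which makes the ganglioside GD3, had 10 and 1 counts and was not tested. St8sia3 and St6gal2 had 0 counts throughout, as did the non-coding transcript St8sia3os that the symbol pattern admits.

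Of the 10 tested genes on sialic acid supply and removal 2 were higher, 4 lower and 4 did not pass. The called share was 60%, beside 67.1% of all tested genes. Gne, the rate-limiting enzyme of sialic acid synthesis, went from 63.8 ± 1.06 to 31.5 ± 1.499 CPM (log2 change -1.02, SE 0.07, adjusted p = 8.87e-06). Npl, which breaks sialic acid down, was the lowest of the list at -4.62 (SE 0.53, adjusted p = 0.000158), from 2.90 ± 1.25 to 0.109 ± 0.0751 CPM, and at -5.32 without UV2 replicate 3. Neu1, the lysosomal sialidase, was the highest at or above 1 CPM, at 0.56 (SE 0.11, adjusted p = 0.00252).

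**Figure D2:**
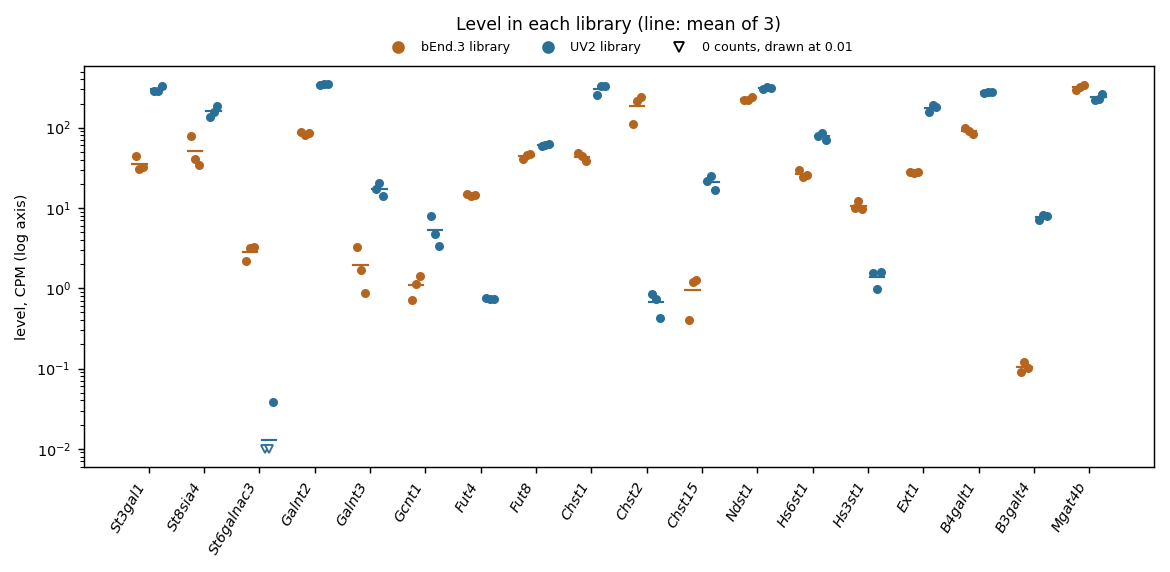
CPM in each library (log axis) of 18 genes described in the text, with 1 point for each library and a line at the mean of 3. Most genes show tight replicates with the lines apart; the bEnd.3 replicates of St8sia4, Galnt3, Chst2 and Chst15 differ more than 2-fold.

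Mucin-type O-glycans are begun by the Galnt family, which attach N-acetylgalactosamine to serine or threonine, and are branched by the Gcnt family. In UV2 Galnt2, Galnt3, Galnt12 and Galnt18 were higher, Galnt11, Galnt4 and Galnt7 were lower, and both tested Gcnt genes were higher. Of 21 genes 11 were tested, of which 6 were higher, 3 lower and 2 did not pass; 5 were higher beyond 2-fold and none lower. The median log2 fold change was 1.12.

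Galnt1, the leading member per kb in both lines, had 413, 338 and 324 CPM in bEnd.3 and 435, 385 and 368.3 CPM in UV2. The lines overlapped and it did not pass (log2 change 0.15, SE 0.11, adjusted p = 0.271); without bEnd.3 replicate 1 it passed at 0.26. Galnt2 (chromosome 8, 124231394 to 124345722), the other broadly acting initiator, had 88.7, 81.6 and 86.9 CPM and 338, 348 and 346 CPM. Its replicates were among the tightest, and the 4.01-fold difference gave a log2 fold change of 2.00 (SE 0.06, adjusted p = 2.64e-07). Galnt18 had 71.6, 105 and 122 CPM and 177, 223 and 252 CPM, a log2 fold change of 1.12 (SE 0.20, adjusted p = 0.00165). As shares of the Galnt level per kb, Galnt1 went from 41.9% in bEnd.3 to 31.7% in UV2, Galnt2 from 9.69% to 26.6% and Galnt18 from 18.1% to 27.0%. Galnt1 led in both lines.

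Galnt3, which glycosylates and so protects the hormone FGF23, had 3.27, 1.71 and 0.883 CPM in bEnd.3 and 17.3, 20.3 and 14.0 CPM in UV2. All UV2 libraries were above the bEnd.3 ones, whose replicates differed more than 3-fold (log2 change 3.17, SE 0.39, adjusted p = 0.000211). Galnt12 was at 0.269, 0.204 and 0.272 CPM and 1.99, 2.67 and 1.70 CPM, low in both lines, with a log2 fold change of 3.06 (SE 0.31, adjusted p = 7.46e-05). Galnt15 had 0 counts in bEnd.3 and 21 in UV2, at least 7.64-fold higher.

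The lower genes of the family were Galnt11, Galnt4 and Galnt7. Galnt11, which glycosylates Notch1, had 62.6, 68.6 and 70.2 CPM in bEnd.3 and 29.6, 29.8 and 34.4 CPM in UV2, with every UV2 library below every bEnd.3 library (log2 change -1.10, SE 0.09, adjusted p = 2.17e-05). Galnt4 and Galnt7, which prefer peptides that already carry a sugar, had log2 fold changes of -0.62 (SE 0.08, adjusted p = 0.000223) and -0.65 (SE 0.14, adjusted p = 0.00427). Galnt10, of the same preference, did not pass at -0.18 (SE 0.18, adjusted p = 0.405) and passed at -0.36 without bEnd.3 replicate 1. Galnt5, Galnt9, Galnt13 and Galnt14 had 0 counts in every library, and Galnt6 and Galnt16 had at most 3 counts in a line.

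Gcnt1 makes the core 2 branch that carries selectin ligands. It had 0.718, 1.14 and 1.43 CPM in bEnd.3 and 7.90, 4.80 and 3.32 CPM in UV2, a log2 fold change of 2.26 (SE 0.38, adjusted p = 0.00113), with no overlap. Gcnt2, which makes the I branch of poly-lactosamine, had 10.7, 13.2 and 13.3 CPM and 37.6, 30.0 and 31.3 CPM (log2 change 1.41, SE 0.13, adjusted p = 4.92e-05). Gcnt3 had 0 counts in bEnd.3 and 7 in UV2, and Gcnt4 had none in either line. St3gal1, which caps the same core 1 substrate that Gcnt1 branches, stood at 7.16 ± 1.503 CPM per kb in bEnd.3 and 60.2 ± 4.85 in UV2, against 0.330 ± 0.107 and 1.61 ± 0.705 CPM per kb for Gcnt1. Both were higher in UV2, and St3gal1 had the higher length-scaled level in both lines.

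Of 12 tested genes on the mucin core and its carriers 5 were higher, 2 lower and 5 did not pass. The called share was 58.3%, beside 67.1% of all tested genes. C1galt1, which makes core 1 itself, had a log2 fold change of 0.83 (SE 0.12, adjusted p = 0.000596). The carriers with the extreme changes were Glycam1, a mucin of high endothelial venules that carries L-selectin ligands, and Emcn (endomucin). Glycam1 had 1 count in bEnd.3 and 305 in UV2, a ratio of 331 with an exact 95% counting interval of 59.0 to 13134, its fitted log2 fold change going from 7.89 to 9.73 without bEnd.3 replicate 2. Emcn went from 780.2 ± 57.2 to 281 ± 29.2 CPM (log2 change -1.47, SE 0.10, adjusted p = 9.05e-06). Podxl (podocalyxin) was lower, at -0.85 (SE 0.12, adjusted p = 0.000508), and Cd34 did not pass at 0.11 (SE 0.11, adjusted p = 0.388).

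Fucosyltransferases add fucose to the core of N-glycans or to the tips of chains, where it forms Lewis antigens. Of 8 genes 5 were tested. In UV2 4 were modestly higher and 1, Fut4, was far lower, the median log2 fold change being 0.60. Beyond 2-fold 1 was lower and none higher, 20% of those tested beside 19.4% of all tested genes. Fut8, the enzyme of core fucosylation and the leading member per kb in both lines, had 40.5, 45.8 and 46.8 CPM in bEnd.3 and 59.8, 60.4 and 61.8 CPM in UV2. The lines did not overlap (log2 change 0.45, SE 0.08, adjusted p = 0.00105), and its share of the family level was 53.2% and 51.6%.

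Fut4 (chromosome 9, 14748459 to 14752122) makes Lewis x and takes part in selectin ligand synthesis. It had 14.9, 14.3 and 14.4 CPM in bEnd.3 and 0.761, 0.727 and 0.733 CPM in UV2. The replicates of each line were nearly equal and the lines were 19.5-fold apart, a log2 fold change of -4.28 (SE 0.14, adjusted p = 2.36e-07). Its share of the family level fell from 12.8% to 0.460%. The other alpha1,3-fucosyltransferases of selectin ligands had too few counts to compare, with 6 counts of Fut7 in each line and none of Fut9.

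Fut11 had 27.6, 29.4 and 30.9 CPM in bEnd.3 and 59.6, 64.5 and 61.8 CPM in UV2 (log2 change 1.08, SE 0.07, adjusted p = 1.05e-05), and its share of the family went from 25.2% to 37.7%. It lies on chromosome 14, where the median log2 fold change of all genes was 0.72, and its own was 0.36 after that median was removed. Fut2, which makes the H antigen, and Fut10 had log2 fold changes of 1.11 (SE 0.23, adjusted p = 0.00333) and 0.60 (SE 0.19, adjusted p = 0.0224). The call of Fut10 was lost without bEnd.3 replicate 2 or 3 or UV2 replicate 1 or 2, at 0.45 to 0.58, and with chromosome medians removed. Fut1 had 5 counts in bEnd.3 and 1 in UV2. Of 13 tested genes on fucose supply and protein O-fucosylation 7 were higher, 3 lower and 3 did not pass. The called share was 76.9%, beside 67.1% of all tested genes. The extremes were Gmds, which starts GDP-fucose synthesis, at 2.16 (SE 0.23, adjusted p = 0.000106), and Slc35c2, a putative GDP-fucose transporter, at -0.96 (SE 0.09, adjusted p = 6.42e-05).

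The polymerases build the sugar backbones of heparan sulfate and hyaluronan. Of 8 genes 6 were tested, and 5 were higher and 1 lower in UV2. All 4 tested Ext genes were higher, with Ext1 changed by far the most of them; with each chromosome's median removed the group had 3 higher and 2 lower genes, Extl3 among the lower. Ext1 (chromosome 15, 53068261 to 53346183), which forms the heparan sulfate copolymerase with Ext2, had 27.9, 26.9 and 28.4 CPM in bEnd.3 and 159, 192 and 180.3 CPM in UV2. Its log2 fold change was 2.67 (SE 0.09, adjusted p = 2.76e-07), 6.38-fold. Its partner Ext2 had 135, 139 and 139 CPM and 159, 174 and 169 CPM, with a log2 fold change of 0.28 (SE 0.06, adjusted p = 0.00438). Per kb, Ext1 stood at 3.62 ± 0.0964 CPM in bEnd.3 and 23.1 ± 2.19 in UV2, and Ext2 at 50.03 ± 0.864 and 60.9 ± 2.69. Per kb the level of Ext1 was below that of Ext2 in both lines, by a smaller margin in UV2.

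Extl3, which adds the first N-acetylglucosamine of a heparan sulfate chain, had 113, 109.7 and 111 CPM in bEnd.3 and 152, 148 and 141 CPM in UV2 (log2 change 0.40, SE 0.06, adjusted p = 0.000627). Extl3 lies on chromosome 14, and its change was -0.32 (adjusted p = 0.00246) after the chromosome's median was removed, so its direction depends on that choice. Extl2 had a log2 fold change of 0.35 (SE 0.10, adjusted p = 0.0122), a call lost with chromosome medians removed, and Extl1 had 4 and 7 counts. The hyaluronan synthases went different ways. Has3 had 11.7, 37.9 and 38.2 CPM in bEnd.3 and 7.31, 6.88 and 11.7 CPM in UV2. bEnd.3 replicate 1 lay at the level of UV2 replicate 3, so the lines overlapped, and the log2 fold change was -1.76 (SE 0.44, adjusted p = 0.00819). Has3 shares 352 exon bases on the opposite strand with Chtf8, which was at 163 and 176 CPM. Has2 had 0.224, 0.204 and 0.102 CPM and 0.718, 1.21 and 3.05 CPM, higher in UV2 by a log2 fold change of 3.25 (SE 0.67, adjusted p = 0.00317), or 2.45 without UV2 replicate 3. Has1 had 5 and 18 counts. Of 8 tested genes on hyaluronan turnover and binding 3 were higher, 4 lower and 1 did not pass. The called share was 87.5%, beside 67.1% of all tested genes. Cemip, a hyaluronan-degrading protein, had a log2 fold change of 1.71 (SE 0.33, adjusted p = 0.00224). The hyaluronidase Hyal1 had one of -5.94 (SE 0.27, adjusted p = 1.32e-06), from 11.7 ± 0.579 to 0.191 ± 0.0988 CPM.

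**Figure D3:**
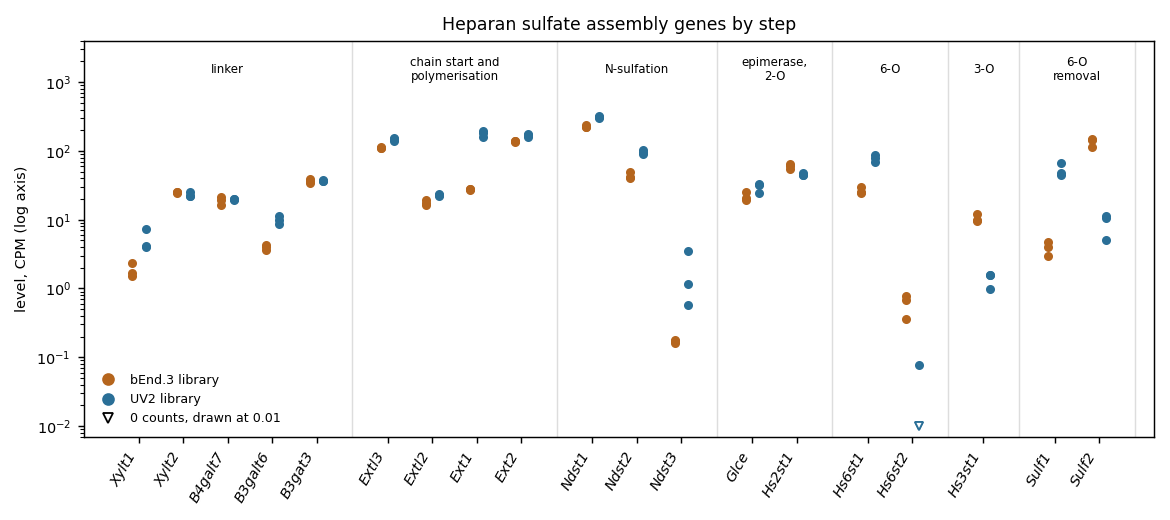
CPM (log axis) in each bEnd.3 library (orange) and UV2 library (blue) of the heparan sulfate genes in the order of synthesis, from the linker through the polymerases to the sulfotransferases and sulfatases; heights compare lines within a gene, since CPM is not scaled by length. Ext1, Hs6st1 and Sulf1 lie higher in UV2, and Hs3st1 and Sulf2 lie lower.

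Heparan sulfate sulfotransferases set the pattern that proteins read on the chain. In UV2 the N-deacetylase/N-sulfotransferases and 6-O-sulfotransferase 1 were higher, while 2-O-sulfotransferase and 3-O-sulfotransferase 1 were lower. Of 15 genes 6 were tested, 4 higher and 2 lower. Ndst1, which begins modification and led the set per kb in both lines, had 220.3, 222 and 242 CPM in bEnd.3 and 304, 322 and 313 CPM in UV2 (log2 change 0.46, SE 0.07, adjusted p = 0.000537). Ndst2 had 41.1, 41.4 and 49.5 CPM and 96.4, 91.4 and 105 CPM, with a log2 fold change of 1.15 (SE 0.09, adjusted p = 2.72e-05). Ndst2 lies on chromosome 14 too, and its change was 0.43 after that median was removed. Ndst3 was near the limit of detection in bEnd.3 at 0.179, 0.163 and 0.170 CPM and had 3.55, 1.16 and 0.578 CPM in UV2. The UV2 libraries spread widely, and the log2 fold change of 3.33 (SE 0.78, adjusted p = 0.0059) was 2.31 without UV2 replicate 1.

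Hs6st1 (chromosome 1, 36068400 to 36106446) had 30.0, 24.5 and 25.4 CPM in bEnd.3 and 79.8, 86.9 and 69.4 CPM in UV2. All UV2 libraries were more than 2-fold above all bEnd.3 libraries, and the log2 fold change was 1.56 (SE 0.11, adjusted p = 1.37e-05). Hs6st2, the other 6-O-sulfotransferase detected, went the other way with 47 counts in bEnd.3 and 2 in UV2, a ratio of 21.6 with an exact 95% counting interval of 5.66 to 184. Hs2st1, the 2-O-sulfotransferase of heparan sulfate, had 59.5, 64.1 and 53.8 CPM and 44.5, 47.1 and 45.4 CPM, lower with no overlap (log2 change -0.37, SE 0.08, adjusted p = 0.00396).

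Hs3st1 (chromosome 5, 39613935 to 39645592) makes the 3-O-sulfate of the antithrombin-binding site. It had 10.0, 12.2 and 9.61 CPM in bEnd.3 and 1.56, 0.969 and 1.58 CPM in UV2, 7.63-fold lower (log2 change -2.93, SE 0.21, adjusted p = 1.30e-05). Its share of the summed heparan sulfate sulfotransferase level per kb was 8.64% in bEnd.3 and 0.756% in UV2. The other Hs3st genes were at or near 0 in both lines: Hs3st2, Hs3st3a1, Hs3st3b1 and Hs3st4 had 0 counts throughout, and Hs3st5 and Hs3st6 had 1 count each in bEnd.3. Over the same set the share of Hs6st1 went from 9.86% to 19.6% and that of Hs2st1 from 13.2% to 6.84%.

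Of the 7 tested genes that make the linker or remodel the finished chain 3 were higher, 2 lower and 2 did not pass. The called share was 71.4%, beside 67.1% of all tested genes. The endosulfatases, which remove 6-O-sulfate at the cell surface, moved in opposite directions. Sulf1 had 4.04, 4.80 and 2.99 CPM in bEnd.3 and 47.3, 67.6 and 44.6 CPM in UV2 (log2 change 3.76, SE 0.23, adjusted p = 5.42e-06). Sulf2 had 116, 149.7 and 146 CPM and 11.4, 10.6 and 5.13 CPM (log2 change -3.93, SE 0.27, adjusted p = 1.11e-05). Glce, the epimerase that makes iduronic acid, had a log2 fold change of 0.45 (SE 0.15, adjusted p = 0.0245), and its call was lost without bEnd.3 replicate 1 or 3 or UV2 replicate 1 or 2 (0.37 to 0.42). Of the 7 tested genes of sulfate donor supply 5 were higher and none lower, a called share of 71.4% beside 67.1% of all tested genes. Papss2, which makes the donor PAPS, went from 0.508 ± 0.177 to 4.09 ± 0.646 CPM (log2 change 3.01, SE 0.28, adjusted p = 5.31e-05). Impad1, a phosphatase that clears a by-product of PAPS, had a log2 fold change of 0.35 (SE 0.08, adjusted p = 0.00523).

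The Chst genes sulfate chondroitin, dermatan, keratan sulfate and the tips of N- and O-glycans. In UV2 Chst1, Chst15 and Chst3 were higher beyond 2-fold and Chst2 was lower beyond 2-fold. Of 14 genes 8 were tested, 5 higher and 3 lower in UV2. Chst2 (chromosome 9, 95400926 to 95407270), which puts 6-O-sulfate on N-acetylglucosamine in L-selectin ligands, had 111, 212 and 242 CPM in bEnd.3 and 0.845, 0.727 and 0.424 CPM in UV2. bEnd.3 replicate 1 was the lowest of its line. The bEnd.3 libraries were all above 100 CPM and the UV2 libraries all below 1 CPM, with 14837 and 46 counts. The log2 fold change was -8.16 (SE 0.42, adjusted p = 2.30e-06), the lowest among the 72 tested members. Chst4, the other enzyme of this kind in high endothelial venules, had 0 counts in bEnd.3 and 1 in UV2.

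Chst1 (chromosome 2, 92599632 to 92615252), which puts 6-O-sulfate on galactose in keratan sulfate, had 47.9, 44.3 and 38.0 CPM in bEnd.3 and 257, 329 and 329 CPM in UV2. The difference was 7.03-fold with no overlap (log2 change 2.81, SE 0.13, adjusted p = 1.49e-06). Of the summed Chst level per kb, Chst1 held 18.04%, 15.5% and 12.9% in the bEnd.3 libraries and 61.6%, 68.1% and 71.1% in the UV2 libraries. Chst2 held 15.3%, 27.2% and 30.2% in bEnd.3 and a mean of 0.0542% in UV2. Galactose-6 and N-acetylglucosamine-6 sulfotransferase transcripts were thus both present in bEnd.3, and in UV2 the former made up most of the family.

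The sulfotransferases of chondroitin and dermatan did not move together, and those acting at the 6-O position went both ways. Chst11 and Chst12, which sulfate chondroitin at the 4-O position, were higher: Chst11 had 56.7, 38.0 and 41.6 CPM and 98.7, 97.4 and 101 CPM (log2 change 1.13, SE 0.14, adjusted p = 0.000229), and Chst12 had a log2 fold change of 0.42 (SE 0.13, adjusted p = 0.0229), whose call was lost without bEnd.3 replicate 2 or 3 or UV2 replicate 1 or 2, at 0.31 to 0.43. Chst15 (chromosome 7, 132235779 to 132323534), which adds a 6-O-sulfate to 4-O-sulfated chondroitin, had 0.404, 1.18 and 1.26 CPM and 21.4, 24.7 and 16.7 CPM, 21.4-fold higher (log2 change 4.42, SE 0.32, adjusted p = 1.43e-05). Chst3, a chondroitin 6-O-sulfotransferase, rose from 0.179, 0.122 and 0.0339 CPM to 1.77, 1.89 and 1.27 CPM and stayed low (log2 change 3.89, SE 0.44, adjusted p = 0.000145). The other 6-O-sulfotransferase, Chst7, was lower in UV2 with 61.7, 56.4 and 62.2 CPM and 34.3, 27.8 and 19.7 CPM (log2 change -1.14, SE 0.18, adjusted p = 0.000808). Per kb, Chst7 stood at 27.3 ± 1.46 in bEnd.3 and 12.4 ± 3.33 in UV2, above Chst3 at 0.0187 ± 0.0122 and 0.275 ± 0.0549. Chst14, which sulfates dermatan, had 39.2, 41.6 and 38.7 CPM and 21.8, 19.5 and 21.1 CPM, lower with no overlap (log2 change -0.94, SE 0.08, adjusted p = 3.48e-05). Of 6 tested genes that build chondroitin and dermatan chains 1 was higher, 3 lower and 2 did not pass. The called share was 66.7%, beside 67.1% of all tested genes. Dsel, a dermatan epimerase, was the lowest at -3.19 (SE 0.14, adjusted p = 1.17e-06), and Csgalnact1, which starts chondroitin, was at -1.33 (SE 0.08, adjusted p = 5.43e-06) while Csgalnact2 was at 0.64 (SE 0.08, adjusted p = 0.000277). Chst10 had 8 counts in bEnd.3 and none in UV2, Chst5 and Chst8 at most 2, and Chst9 and Chst13 none.

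**Figure D4:**
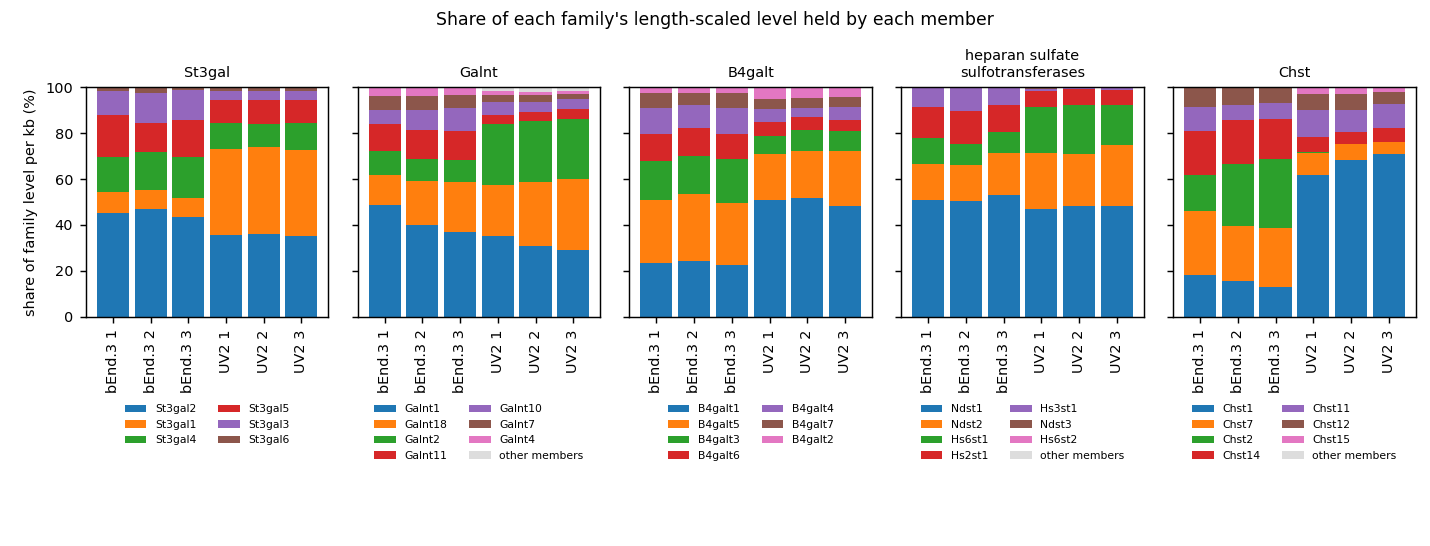
Share of the summed level per kb (y axis, %) that each member held in each library for 5 families. In UV2 St3gal1, Galnt2, B4galt1, Hs6st1 and Chst1 take larger shares, and Chst2 and Hs3st1 hold under 1% of theirs.

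Chain extension enzymes add galactose, N-acetylglucosamine or N-acetylgalactosamine to growing chains, those of glycolipids included. Of 26 genes 17 were tested; 10 were higher, 4 lower and 3 did not pass, with 8 higher and none lower beyond 2-fold and a median log2 fold change of 1.11. B4galt1 (chromosome 4, 40804602 to 40853984), the main maker of lactosamine, had 98.5, 92.2 and 84.5 CPM in bEnd.3 and 274, 282 and 278 CPM in UV2. The replicates were tight and the lines 3.03-fold apart (log2 change 1.60, SE 0.07, adjusted p = 1.48e-06). Its share of the B4galt level per kb was 23.3% in bEnd.3 and 50.3% in UV2. B4galt2 was higher at 1.36 (SE 0.10, adjusted p = 1.45e-05), while B4galt3 and B4galt4 were lower at -0.52 (SE 0.09, adjusted p = 0.00103) and -0.66 (SE 0.17, adjusted p = 0.00859).

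Of the galactosyltransferases of the glycosaminoglycan linker B3galt6 was higher and B4galt7 did not pass. B4galt7, which adds the first galactose, had 21.6, 16.6 and 19.2 CPM in bEnd.3 and 19.1, 19.97 and 20.1 CPM in UV2 and did not pass (log2 change 0.05, SE 0.11, adjusted p = 0.735). B3galt6, which adds the next, had 4.35, 3.66 and 4.07 CPM and 9.97, 8.73 and 11.1 CPM, a log2 fold change of 1.31 (SE 0.14, adjusted p = 0.000128). Per kb B3galt6 stood at 1.27 ± 0.108 and 3.12 ± 0.380 CPM, below B4galt7 in both lines.

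Among the N-acetylglucosaminyltransferases, B3gnt3 makes the extended core 1 chain that carries sulfated L-selectin ligands. B3gnt3 had 63.3, 59.9 and 68.3 CPM in bEnd.3 and 139.5, 151 and 163 CPM in UV2 (log2 change 1.24, SE 0.08, adjusted p = 9.36e-06). B3gnt2, the main poly-lactosamine enzyme, was slightly lower at -0.30 (SE 0.06, adjusted p = 0.00179). Of the family level B3gnt3 held 32.2% in bEnd.3 and 57.2% in UV2, so that it overtook B3gnt2. B3gnt8, a partner of B3gnt2, and B3gnt9 were higher at 2.92 (SE 0.58, adjusted p = 0.00264) and 1.11 (SE 0.24, adjusted p = 0.00451), both from low levels. B3gnt9 shares 416 exon bases with a gene on the opposite strand.

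3 enzymes of the later steps of ganglioside and globoside synthesis were near 0 in bEnd.3 and present in UV2. B3galt4 (chromosome 17, 33949912 to 33951488), which makes the gangliosides GM1 and GD1b, had 0.0897, 0.122 and 0.102 CPM in bEnd.3 and 7.10, 8.19 and 7.87 CPM in UV2. With 8 counts in bEnd.3 and 541 in UV2 the log2 fold change was 6.13 (SE 0.23, adjusted p = 4.95e-07), the highest among the 72 tested members. B4galnt1, which makes its substrates GM2 and GD2, had 0.135, 0.0407 and 0.0339 CPM and 1.14, 1.31 and 0.463 CPM, a log2 fold change of 3.76 (SE 0.65, adjusted p = 0.00129) and 4.51 without bEnd.3 replicate 1. B4galnt1 shares 715 exon bases on the opposite strand with Slc26a10, itself at 0.0647 CPM in bEnd.3 and 0.796 CPM in UV2. With no strand setting stated, sharing of reads between these genes was not tested, and all deposited values of B4galnt1 were whole numbers. B3galnt1 (chromosome 3, 69573919 to 69598960), which makes globoside, had 1 count in bEnd.3 and 70 in UV2, a ratio of 76.1 with an exact 95% counting interval of 13.2 to 3047 (adjusted p = 0.000328). Its 1 count lay in bEnd.3 replicate 2, without which the fitted log2 fold change went from 5.80 to 7.63. The earlier enzymes did not go the same way: B4galt5 and B4galt6, which make lactosylceramide, were at 0.11 (SE 0.11, adjusted p = 0.396), which did not pass, and at -0.57 (SE 0.09, adjusted p = 0.00107). B3galnt2, which acts on dystroglycan, was higher at 0.67 (SE 0.14, adjusted p = 0.00313), a call lost with chromosome medians removed (0.14). B3galt1 did not pass at 0.20 (SE 0.25, adjusted p = 0.506), and B3galt5 and B4galnt3 had 0 counts. B4galnt2, below the filter, had 34 counts in bEnd.3 and 10 in UV2.

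The start regions of 3 genes that were near 0 in bEnd.3 and higher in UV2 are shown to set their letters beside that difference: B3galt4, B3galnt1 and Chst3. Each run is the 250 bases before the only RefSeq start for which a window of the gene was available on GRCm38.p6. Runs read 5′ to 3′ on the gene's strand, which is the minus strand for all 3. Capitals mark CG dinucleotides. The positions are chr17:33951489-33951738, chr3:69598961-69599210 and chr10:60219261-60219510. The Chst3 run lies inside the RefSeq span of that gene, 60181527 to 60222114, whose outer end is upstream of the run.
B3galt4: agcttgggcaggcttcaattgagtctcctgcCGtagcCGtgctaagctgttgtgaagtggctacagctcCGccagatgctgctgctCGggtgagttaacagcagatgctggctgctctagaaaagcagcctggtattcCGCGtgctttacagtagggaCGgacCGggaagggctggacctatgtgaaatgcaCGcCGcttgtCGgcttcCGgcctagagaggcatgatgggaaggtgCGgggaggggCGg
B3galnt1: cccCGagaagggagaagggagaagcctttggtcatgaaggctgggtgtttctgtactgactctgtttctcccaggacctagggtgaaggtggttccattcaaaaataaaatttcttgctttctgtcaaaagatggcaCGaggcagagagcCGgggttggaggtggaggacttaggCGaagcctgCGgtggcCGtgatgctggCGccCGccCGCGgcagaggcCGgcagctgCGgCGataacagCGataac
Chst3: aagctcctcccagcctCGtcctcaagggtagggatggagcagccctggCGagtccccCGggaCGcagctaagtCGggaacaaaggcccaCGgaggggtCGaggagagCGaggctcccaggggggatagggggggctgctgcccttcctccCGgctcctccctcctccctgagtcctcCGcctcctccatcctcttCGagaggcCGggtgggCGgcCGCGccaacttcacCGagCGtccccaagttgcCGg
The runs hold 14, 14 and 18 CG dinucleotides, against a median of 6 over all 32851 RefSeq windows of this length and 14 over the 121 windows of 91 member genes. Each also holds 1 GC box, searched as GGGCGG on both strands. That motif was in 53.7% of the members' windows and in 32.7% of all windows. The ETS core CCGGAA, on both strands, was in 10.7% and 12.03%, and in 1 copy before B3galt4. The values over all windows were not restricted to protein-coding genes. A match of letters shows no binding.

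N-glycan branching enzymes decide how many antennae an N-glycan carries. They were the only group of the 7 with more lower than higher genes: of 10 genes 6 were tested, 5 lower and 1 higher. Over all tested genes 33.3% were lower and 33.9% higher. The median log2 fold change of the group was -0.36. Beyond 2-fold 1 was lower and none higher, 16.7% of those tested beside 19.4% of all tested genes. Mgat1 and Mgat2, which open the path to complex chains, had log2 fold changes of -0.31 (SE 0.08, adjusted p = 0.00757) and -0.27 (SE 0.09, adjusted p = 0.025). The call of Mgat2 was lost without bEnd.3 replicate 1 or 2 or UV2 replicate 1 or 3, at -0.27 to -0.20, and with chromosome medians removed. Mgat4b, which adds an antenna to the core and led the group per kb in both lines, had 297, 318 and 341 CPM in bEnd.3 and 221, 229 and 266 CPM in UV2 (log2 change -0.42, SE 0.09, adjusted p = 0.00434). Mgat4a, of the same reaction, had 159, 159.9 and 177 CPM and 77.4, 70.3 and 83.0 CPM, lower with no overlap (log2 change -1.10, SE 0.08, adjusted p = 1.68e-05). Mgat4c had 99 counts in bEnd.3 and 4 in UV2 (log2 change -4.42, SE 0.54, adjusted p = 0.000214).

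Mgat5, which makes the branch preferred for poly-lactosamine, was the exception, with 63.0, 51.6 and 48.7 CPM in bEnd.3 and 81.5, 92.6 and 98.8 CPM in UV2. All UV2 libraries were above all bEnd.3 libraries (log2 change 0.74, SE 0.11, adjusted p = 0.000724). Mgat3, which adds the bisecting residue, had 0 counts in every library, and Mgat5b had 1 count in UV2. Of 7 tested genes of N-glycan trimming 4 were higher, none lower and 3 did not pass. The called share was 57.1%, beside 67.1% of all tested genes. The Golgi mannosidase Man2a2 had a log2 fold change of 2.05 (SE 0.11, adjusted p = 3.02e-06). Man1a, also a Golgi mannosidase, had one of 0.32 (SE 0.10, adjusted p = 0.0188), or 0.28 and not called without UV2 replicate 3.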

How the data were processed

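Per the labels' protocols, RNA came from RNeasy Micro Kit columns and libraries from a TruSeq Stranded mRNA kit. Trim Galore, STAR and RSEM on mm10 are named in the submitters' processing notes, and versions, annotation and strand setting were not given in the sources used here. What the authors deposited are expected counts per gene symbol, not normalized, for 24411 genes. RSEM shares ambiguous reads among genes, which can give values that are not whole. Such values were found for 9 tested members: B3galnt2, B3gnt9, B4galt1, B4galt5, Chst15, Fut2, Has2, Ndst1 and St3gal4. Exon bases were shared with another gene by 20 tested members, 2 of them on the same strand (B3gnt2 and Galnt2, each with a predicted gene). These levels are less certain, although St3gal6, Has3 and B4galnt1, which overlap a gene on the opposite strand, had whole values only. Libraries were grouped by the line in the labels. A marker on the leukocyte list is not reported here.

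Counts were rounded, filtered with filterByExpr, scaled by TMM and fitted in edgeR (quasi-likelihood) on the line alone. Ratios with 1 to 3 counts in a line carry exact counting intervals, which take reads as independent molecules and cover counting error only. Lengths are medians of protein-coding transcripts in GENCODE vM21; positions and windows before gene starts are from RefSeq, GRCm38.p6, which positioned 99.5% of genes. The labels number the replicates and do not state a pairing. Deviations from the line means correlated at 0.17, 0.27 and 0.33 for same-numbered libraries and at -0.35 to 0.10 for others. Each same-numbered correlation thus lay above every other. As the labels state no pairing, the main fit had none, and pairing by number was run as an alternative. Alternatives were other scalings and filters, DESeq2, limma-voom, the replicate block, removal of chromosome medians and leaving out each library; the exon union length and all alternatives for the summed levels were added after seeing the data. Statistics were tested on simulated data.

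Members and lists were chosen with earlier results of these data known. The rule named members changed beyond 2-fold at 1 CPM or more, group leaders, a set of core enzymes and the extremes of each list; other genes named were chosen after their values were seen. Versions were edgeR 4.0.16, DESeq2 1.42.0 and limma 3.58.1 on R 4.3.3, with pandas 2.3.3 and scipy 1.17.1 on Python 3.11.15.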

Additional observations from a re-analysis of the deposited data

How the results depend on the processing

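All 65 member calls were shared with DESeq2-type size factors, DESeq2, limma-voom and the paired fit, in which the replicate block gave 42 higher and 23 lower members and changed no member's call. Total counts lost St3gal4, the filter of 1 CPM lost 6 genes and no filter added 6. Leaving out 1 library gave 38 to 44 higher and 22 to 25 lower members.

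With chromosome medians removed the polymerases had 3 higher and 2 lower genes, the sulfate donor list 3 higher and the mucin core list 4 lower. Total counts gave 4 lower in the mucin core list and 1 lower in the sulfate donor list, which had 0 to 1 lower when a library was left out. The sialic acid list had 1 higher gene with the filter of 1 CPM, and the chondroitin list 2 higher with no filter. Log2 fold changes that turned were Extl3 (-0.32), B4galt7 (-0.48) and St6galnac6 (0.22) with chromosome medians removed and B4galt7 (-0.0189) with total counts. Leaving out a library gave B4galt5 -0.0042 to 0.19, B4galt7 -0.0411 to 0.14 and St6galnac6 -0.17 to 0.051. Of these genes only Extl3 had been called. The cause was not tested.

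Shares and sums depend on the transcript length used. Without division by length the shares of the members that led per kb were 36.5% and 35.2% for Mgat4b in bEnd.3 and UV2, 46.3% and 44.8% for Fut8 and 42.5% and 31.9% for Ext2. They were 18.4% for B3gnt2 and 29.8% for Ndst1 in bEnd.3, and 30.4% for B4galt1, 34.4% for Galnt1, 35.3% for St3gal1 and 29.3% for Chst1 in UV2. Others then led in 4 cases: B4galt5 in bEnd.3 (25.7%), and in UV2 Fut11 (45.7%), Ext1 (33.7%) and Ndst1 (30.2%). With the exon union length the shares were 48.8% and 47.3% for Mgat4b, 50.4% and 48.8% for Fut8 and 54.0% and 44.9% for Ext2, 26.8% for St3gal2 and 17.1% for Ndst1 in bEnd.3, and 25.8% for B4galt1 and 30.4% for St3gal1 in UV2. B4galt5 then led chain extension in bEnd.3 (22.0%), with B3gnt2 at 19.9%. The ratio of summed levels, UV2 over bEnd.3, kept its side of 1 for every group and alternative run. It was 2.10 for sialylation, 1.62 for polymerases and 1.35 for sulfation without length, and 1.53 for mucin-type genes and 1.46 for polymerases with the exon union. Leaving out a library gave 1.38 to 1.44 for fucosylation and 1.47 to 1.504 for mucin-type genes. With total counts it was 1.36 for chain extension, 1.35 for fucosylation, 1.42 for mucin-type genes and 1.33 for polymerases. Members with few counts in both lines were not tested, so a difference in them was not detectable at this depth.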
